A study of Mus musculus with 4 samples.

Results

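The 45 genes described here act in mitosis, the stage at which a cell separates its copied chromosomes, and in the spindle checkpoint, which delays that separation until every chromosome is attached. They were selected by name, as the array probes whose gene name, older or current, is one of 45 listed members. All 45 were measured, among 23106 genes tested, through 77 probes of which 75 passed a filter on dim signals. RNA came from neurospheres, which are floating balls of cells that neural stem cells form in EGF-supplemented medium without serum, and the mice were 129/Sv crossed with C57BL/6. The groups were the Dll1 mutant lines Dll1-5 and Dll1-3 and wild type, and Dll1 encodes a ligand of Notch receptors. The labels do not say what the alleles are or how the lines differ. Each of 4 arrays carried mutant RNA in one dye and wild-type RNA in the other. For a line, the 2 arrays were a dye swap, and the RNA was pooled from 3 preparations, so a line counted as 1 replicate (n = 2 lines). The labels leave unsaid whether a line's arrays shared their RNA pools. Unless arrays are named as samples, p-values measure only the spread between the 2 line means. That spread may be technical, and it also holds any difference between the lines.

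A dividing cell enters mitosis when CDK1 with its cyclins becomes active. Condensins then compact the chromosomes, kinesins and other proteins build the spindle, and kinetochores tie each chromosome to it. The checkpoint proteins hold back the anaphase-promoting complex, a ubiquitin ligase, until attachment is complete, and the cell is then cut apart in cytokinesis. Many of these genes are transcribed mainly in the G2 and M phases, through promoters with a cell-cycle element called the CHR and with CCAAT boxes, so their RNA is widely read as a measure of dividing cells. In a bulk culture a larger share of dividing cells and more of these RNAs per cell cannot be told apart.

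Unless another quantity is named, a value is the log2 of the mutant level over the wild-type level, so that 1 means a 2-fold higher level in the mutant. Mean values over both lines carry the SD between the line means (n = 2 lines). Between 81.1% and 81.5% of spots were well above background for mutant RNA and between 80.2% and 82.2% for wild-type RNA, and having only 4 arrays limits how precise any value is. Dll1 itself stood at -1.65 and -1.64 on the Dll1-5 arrays and at -3.31 and -3.22 on the Dll1-3 arrays. Over all genes the arrays of a line correlated at r = 0.909 for Dll1-5 and r = 0.940 for Dll1-3. Of 7 neural stem cell markers 7 were well above background in both channels of all arrays. Their summed signal was 61751 to 82361 in mutant channels, against 98553 to 114913 in wild-type channels. Summed signals of 5 astrocyte markers were 8735 to 18416 against 68402 to 96150 in the same order, those of 6 neuronal markers 2954 to 5966 against 14338 to 15060, and those of 6 oligodendrocyte markers 18624 to 35577 against 35444 to 38561. The 5 measured microglia and blood markers summed to 443 to 493 against 441 to 477. The 5 measured endothelial and fibroblast markers summed to 596 to 639 against 582 to 625. Of these, 3 of 5 and 4 of 5 were well above background in all channels. The same held for 4 of 5 astrocyte, 5 of 6 neuronal and 4 of 6 oligodendrocyte markers. Sums include the offset added to each signal in processing, so similar sums of dim markers do not show equal levels. A single gene carried much of the astrocyte, neuronal and oligodendrocyte sums. Apoe, saturated in 2 wild-type channels, made up 69.2% to 73.1% of the wild-type astrocyte sum. Map2 made up 86.3% to 87.9% of the wild-type neuronal and Olig1 70.9% to 74% of the wild-type oligodendrocyte sum. Without them the sums were 5527 to 12698 against 20341 to 25828, 955 to 1043 against 1793 to 1962, and 6140 to 8304 against 9514 to 10565. Mean ratios over both lines were below 0 for 6 neural stem cell, 4 astrocyte, 4 neuronal and 4 oligodendrocyte markers. Among these, Fabp7, Msi1, Olig1 and Mag were not lower in Dll1-5. Their line means were 0.22, 0.02, 0.04 and 0.07 in Dll1-5, and -0.74, -0.28, -1.16 and -0.25 in Dll1-3. Another probe of Vim and of Mag averaged above 0, at 0.18 and 0.07. The markers with a mean above 0 over both lines were Prom1, Aqp4, Snap25, Rbfox3, Mbp and Mog, at 0.087, 0.083, 0.085, 0.081, 0.066 and 0.012. Their mean log2 intensities were only 6.17 to 7.03. The offset added in processing lowers the ratios of such dim probes, so these values do not show unaltered levels. The part of these marker differences in the results below was not tested.

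The promoter letters of the members are shown first, because the CHR and CCAAT elements are what these genes are known to share. RefSeq entries of build GRCm38.p6 were found for 38 of the 45 members, with 40 promoters running from 250 bases before to 50 bases after the start. Aurkb, Cdc25c, Foxm1, Incenp, Kif20a, Smc4 and Tpx2 had no entry in the table used here. Each line below is the 250 bases before the start, 5′ to 3′ on the strand of the gene, with matches to the CHR (TTTGAA or TTTAAA) or to CCAAT, on either strand, in capitals. The first 4 are the highest members by ratio among those with both elements in this window, and the last 2 are the lowest of all members with an entry.
Ube2c, chr2:164769679-164769928, plus strand: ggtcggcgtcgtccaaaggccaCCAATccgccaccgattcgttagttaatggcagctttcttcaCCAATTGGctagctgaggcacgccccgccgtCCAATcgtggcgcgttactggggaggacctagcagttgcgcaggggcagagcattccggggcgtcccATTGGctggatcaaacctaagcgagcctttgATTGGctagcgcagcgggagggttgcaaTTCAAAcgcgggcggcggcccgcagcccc
Cdk1, chr10:69352913-69353162, minus strand: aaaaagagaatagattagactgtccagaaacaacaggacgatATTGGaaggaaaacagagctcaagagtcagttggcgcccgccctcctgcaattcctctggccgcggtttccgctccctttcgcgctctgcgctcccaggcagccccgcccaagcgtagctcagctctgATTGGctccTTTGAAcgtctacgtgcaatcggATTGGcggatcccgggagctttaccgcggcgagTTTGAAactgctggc
Espl1, chr15:102296043-102296292, plus strand: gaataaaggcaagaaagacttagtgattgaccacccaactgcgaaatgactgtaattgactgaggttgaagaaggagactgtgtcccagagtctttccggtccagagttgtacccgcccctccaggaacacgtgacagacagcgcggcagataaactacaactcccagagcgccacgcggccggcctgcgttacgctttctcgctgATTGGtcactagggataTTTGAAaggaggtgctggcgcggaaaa
Prc1, chr7:80294226-80294475, plus strand: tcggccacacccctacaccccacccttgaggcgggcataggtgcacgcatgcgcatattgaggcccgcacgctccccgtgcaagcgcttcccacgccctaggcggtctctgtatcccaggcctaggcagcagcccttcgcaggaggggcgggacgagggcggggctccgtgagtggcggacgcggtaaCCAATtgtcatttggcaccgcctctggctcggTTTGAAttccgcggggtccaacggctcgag
Ccnf, chr17:24251410-24251659, minus strand: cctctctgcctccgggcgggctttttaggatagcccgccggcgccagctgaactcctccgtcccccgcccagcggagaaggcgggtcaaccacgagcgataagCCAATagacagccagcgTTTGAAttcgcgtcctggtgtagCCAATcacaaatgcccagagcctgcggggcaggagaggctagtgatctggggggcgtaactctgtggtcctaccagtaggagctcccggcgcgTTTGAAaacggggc
Ttk, chr9:83834439-83834688, plus strand: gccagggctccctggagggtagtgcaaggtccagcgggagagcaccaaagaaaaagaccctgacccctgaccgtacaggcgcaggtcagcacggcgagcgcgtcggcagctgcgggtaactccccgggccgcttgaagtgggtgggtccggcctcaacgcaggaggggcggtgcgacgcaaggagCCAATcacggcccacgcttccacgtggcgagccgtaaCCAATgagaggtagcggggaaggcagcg

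The windows of Ube2c, Cdk1, Espl1 and Prc1 were chosen for holding both elements, so their having a match follows from that choice. A count over the windows shown therefore does not describe the members as a whole. Close to the start, 5 of these 6 windows hold a CHR match. It lies 29 to 24 bases before the start in Ube2c, 15 to 10 in Cdk1, 27 to 22 in Espl1, 30 to 25 in Prc1 and 14 to 9 in Ccnf. The nearest CCAAT match lies at 57 to 53 bases before the start in Ube2c, 48 to 44 in Cdk1, 44 to 40 in Espl1, 62 to 58 in Prc1 and 107 to 103 in Ccnf. A second CHR match stands beyond that one in Cdk1, at 71 to 66, and in Ccnf, at 130 to 125. Ube2c has 6 CCAAT matches, a pair of which overlap each other, at 186 to 182 and at 183 to 179. Ttk, a checkpoint kinase, has CCAAT matches at 65 to 61 and 28 to 24 bases before the start. It has no TTTGAA or TTTAAA on either strand in this window, and other forms of the CHR were not searched. No CHR match overlapped a CCAAT match in a member.

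Over the whole 300-base windows, 31 of 40 member promoters (77.5%) held a CHR match, where 27.6% of all 32851 promoters did. A CCAAT match stood in 30 of them (75%), beside 37.4% of all promoters, and 27 (67.5%) held both, beside 10.7%. At least 2 CCAAT matches stood in 19 (47.5%), beside 11.7%. For E2F the letters searched were either TTCCCGC or else TTGGCGC, besides the variants TTCGCGC as well as TTGCCGC, on either strand, and 7 promoters (17.5%) held them, beside 9.57%. Counting only the bases before the start, 19 of 40 member promoters (47.5%) held a CHR match, beside 25.2% of all promoters. There 17 (42.5%) held both CHR and CCAAT, beside 8.78%. Over whole windows, 117 promoters of other mitosis genes, listed further below, had shares of 40.2% for CHR, 56.4% for CCAAT and 33.3% for E2F. In 40 promoters of DNA replication genes the shares were 17.5% for CHR, 60% for CCAAT and 60% for E2F. Neither the CHR letters searched nor CCAAT were found for Mad2l1, Nusap1, Melk, Nuf2, Ncaph and Pttg1. These matches are a description of letters and not of bound factors. The median ratio was 1.32 for 29 members with a CHR match and 1.59 for 9 without, and 1.42 for 28 members with a CCAAT match and 1.30 for 10 without.

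Every mitosis gene was higher in mutant than in wild-type neurospheres on every array, 45 of 45, where 23.9% of all genes were. The median member stood at 1.39 over both lines, a 2.63-fold higher level, and at 1.07 in Dll1-5 and 1.73 in Dll1-3. The medians over all genes were 0.0096 over both lines, 0.0039 in Dll1-5 and 0.0025 in Dll1-3. Means over both lines ran from 0.75 for Ccnf to 2.32 for Kif20a, and single arrays from 0.10 to 3.02. At least a 2-fold higher level on all 4 arrays was seen for 20 of 45 members (44.4%), beside 1.68% of all genes, and these 20 made up 5.14% of the 389 such genes. None of the 45 was 2-fold lower on all 4 arrays, beside 2.73% of all genes. With median centring in place of loess, which leaves the intensity-dependent gap between the dyes in each array, 2 members were 2-fold higher on all 4 arrays, beside 0.515% of all genes, and with a 1.5-fold threshold 41 were, beside 4.92%.

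With only 2 lines, limma passed 0 of 45 members at an adjusted p of 0.05, and 0% of all genes. Adjusted p-values of the members ran from 0.0754 to 0.330. Without adjustment, limma put 43 of 45 members, all but Cdc25c and Cenpe, under 0.05 on the higher side, beside 12% of all genes. The same fit with the 4 arrays as separate samples passed 44 members at the adjusted threshold, beside 33.7% of all genes, and 43 with the dye orientation as a block, beside 29.2%, but on the reading used here those arrays are a technical dye swap. Leaving out the first Dll1-3 array or the second Dll1-5 array also ended the count of 0, with 26 members passing beside 7.29% of all genes, and 25 beside 7.15%. Of all genes, 6.63% were at or above the lowest member and 1.47% above the median member.

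**Figure D1:**
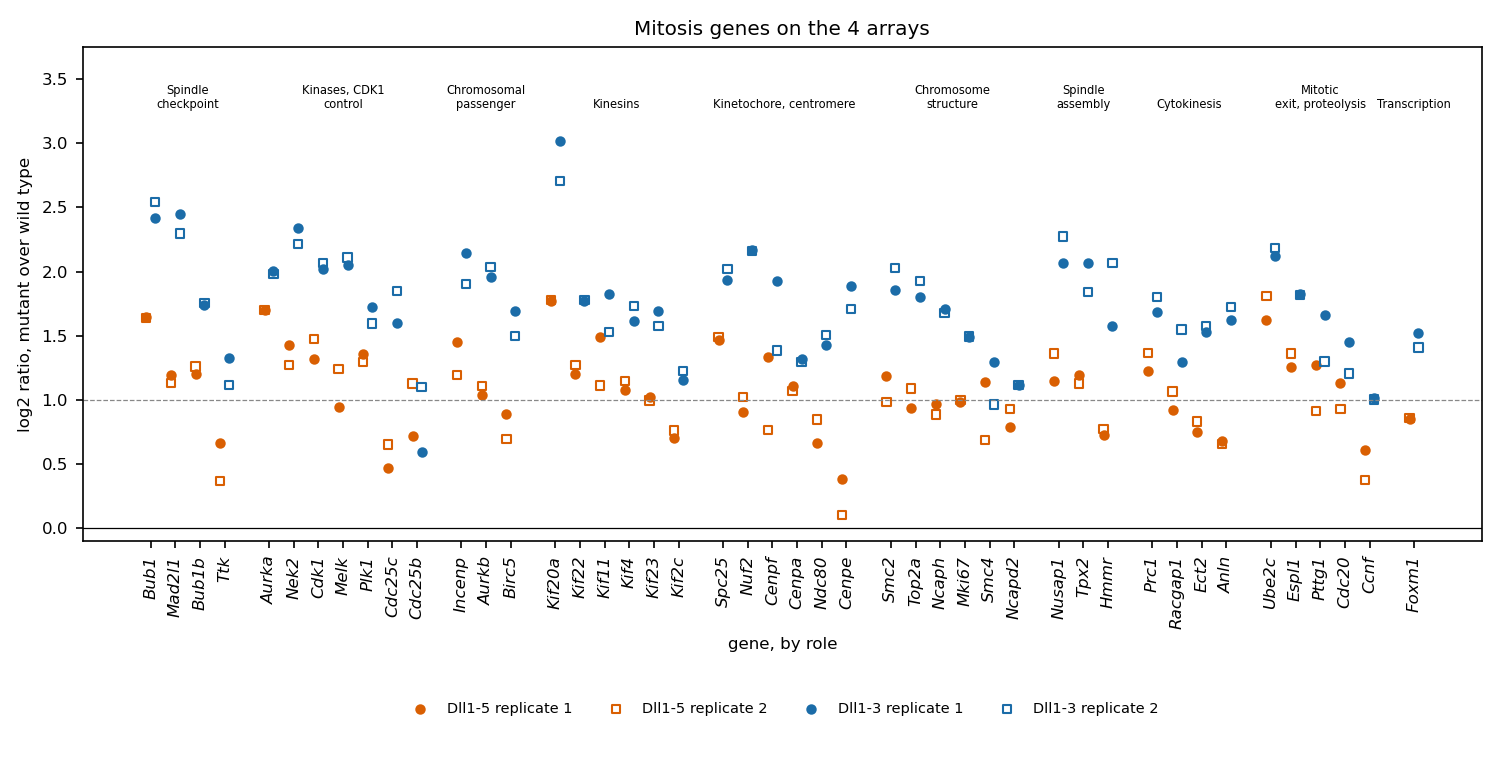
Log2 ratio of mutant over wild type (vertical axis) of the 45 mitosis genes, grouped by role and ordered by mean within a role. Orange marks are the Dll1-5 arrays and blue marks the Dll1-3 arrays, filled for replicate 1 and open for replicate 2; the dashed line at 1 marks a 2-fold level, every mark is above 0, and the Dll1-3 marks lie above the Dll1-5 marks for 43 genes.

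**Figure D2:**
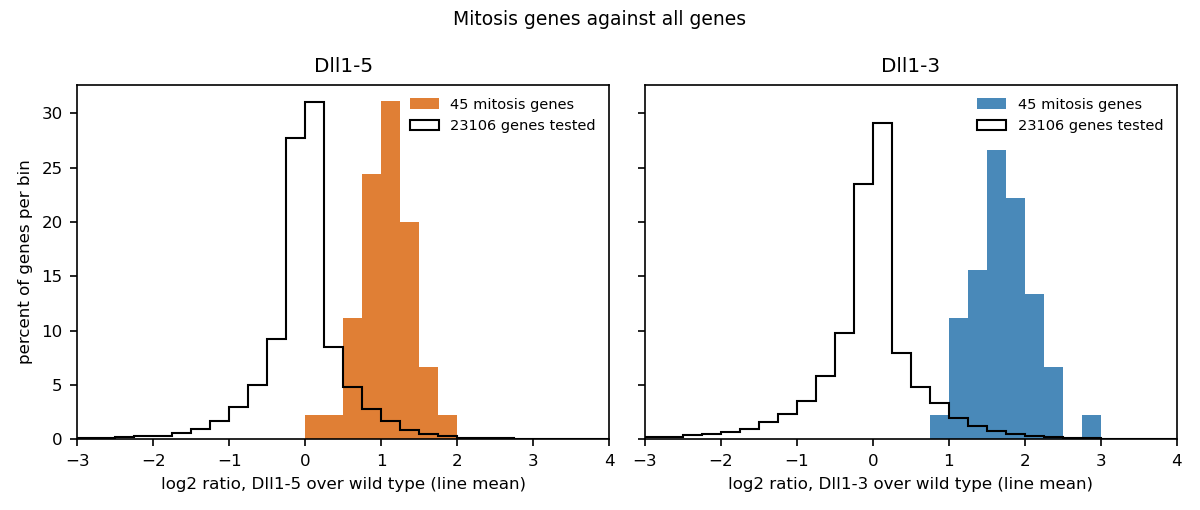
Share of genes per bin of log2 ratio, as line means for Dll1-5 (left) and Dll1-3 (right), for the 45 mitosis genes (filled bars) and all 23106 genes tested (black outline). All genes centre near 0, and the members have medians of 1.07 in Dll1-5 and 1.73 in Dll1-3.

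The spindle checkpoint genes stood high, with a median of 1.63 over 4 members, 3 of them 2-fold higher on all arrays. Bub1, a kinase that recruits the other checkpoint proteins to kinetochores, had ratios of 1.65 and 1.64 on the Dll1-5 arrays, and of 2.42 and 2.54 on the Dll1-3 arrays. The arrays of a line lay close together and the lines did not overlap. Its mean was 2.06 ± 0.59 (SD, n = 2 lines), a 4.17-fold higher level, with an adjusted p of 0.0829 in limma. Mad2l1, which binds and restrains CDC20, had 1.20 and 1.13 in Dll1-5, and 2.45 and 2.30 in Dll1-3. The Dll1-3 arrays were thus well above the Dll1-5 arrays, and the mean was 1.77 ± 0.86. A further Mad2l1 probe gave 1.76. Bub1b, whose protein BubR1 is part of the mitotic checkpoint complex, stood at 1.49 ± 0.37. Ttk, the kinase Mps1 at the top of the checkpoint, was the low member, with 0.67 and 0.37 in Dll1-5 and 1.32 and 1.12 in Dll1-3.

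Mitotic kinases and the phosphatases that control CDK1 had a median of 1.59 over 7 members, and 4 were 2-fold higher on all arrays. Aurka, the centrosomal kinase Aurora A, had 1.70 and 1.70 in Dll1-5, and 2.00 and 1.98 in Dll1-3. Its arrays agreed closely within a line, with a mean of 1.85 ± 0.21 and an adjusted p of 0.0754 in limma, which no member went below. Nek2, a kinase that splits the centrosomes, had 1.43 and 1.27 in Dll1-5, and 2.34 and 2.21 in Dll1-3. Cdk1, the kinase that starts mitosis, had 1.32 and 1.48 in Dll1-5, and 2.02 and 2.07 in Dll1-3. All 4 Cdk1 values exceeded 2-fold, for a mean of 1.72 ± 0.46. Plk1, which acts from entry to cytokinesis, stood at 1.49 ± 0.24, and Melk, a kinase abundant in neural progenitors, at 1.59 ± 0.70. The phosphatases that activate CDK1 differed from each other. Cdc25c had 0.47 and 0.65 in Dll1-5, and 1.60 and 1.85 in Dll1-3. Cdc25b had 0.72 and 1.13 in Dll1-5, and 0.60 and 1.099 in Dll1-3, so its lines overlapped and in both the second array, with mutant RNA in Cy3, was the higher.

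The chromosomal passenger complex corrects faulty attachments and later helps to cut the cell. Its kinase Aurkb had 1.04 and 1.11 in Dll1-5, and 1.96 and 2.03 in Dll1-3. The scaffold Incenp had 1.45 and 1.19 in Dll1-5, and 2.14 and 1.91 in Dll1-3, with the first array of each line the higher. Birc5, the survivin subunit, had 0.89 and 0.70 in Dll1-5, and 1.69 and 1.498 in Dll1-3. In none of the 3 subunits did the lines overlap, and the means were 1.53, 1.67 and 1.19 in the order given.

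Kinesins, motor proteins that move along microtubules, held the highest member, and their median was 1.44, with 4 of 6 at least 2-fold higher on all arrays. Kif20a, which carries the passenger complex to the midzone in anaphase, had 1.77 and 1.78 in Dll1-5, and 3.02 and 2.71 in Dll1-3. All 4 values were over 2-fold, and the mean was 2.32 ± 0.77, a 4.98-fold higher level, with an adjusted p of 0.0906 in limma. Kif20a ranked 40 among all genes by this mean, the best rank of a member. Kif22, which pushes chromosome arms, stood at 1.51 ± 0.38, and Kif11, the motor Eg5 that separates the spindle poles, at 1.49 ± 0.26. Kif4, a chromosome-bound motor, stood at 1.39 ± 0.40. Kif23, a subunit of centralspindlin, had a mean of 1.32 ± 0.44. Kif2c, which takes microtubules apart at the centromere, was the lowest of the 6 at 0.96 ± 0.32.

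Among 6 kinetochore and centromere members, the median was 1.27 and 2 were 2-fold higher on all arrays. The NDC80 complex, which grips the microtubule, gave 3 members. Spc25 had 1.46 and 1.49 in Dll1-5, and 1.93 and 2.02 in Dll1-3. Nuf2 had 0.91 and 1.02 in Dll1-5, and 2.17 and 2.16 in Dll1-3. These 2 subunits thus differed in Dll1-5 and stood close together in Dll1-3, while Ndc80 itself was lower in both, at 0.67 and 0.85 in Dll1-5 and at 1.43 and 1.504 in Dll1-3. Cenpa, the histone H3 variant that marks the centromere, had 1.11 and 1.07 in Dll1-5, and 1.32 and 1.29 in Dll1-3. Cenpf, a large kinetochore protein, averaged 1.35 ± 0.43, with the first array of each line above the second.

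Cenpe, a kinetochore kinesin that brings chromosomes to the spindle equator, had the widest gap between lines. It stood at 0.38 and 0.10 in Dll1-5, and at 1.89 and 1.71 in Dll1-3. Its mean of 1.02 ± 1.101 gave an adjusted p of 0.330 in limma, the highest of the members. A second Cenpe probe had 0.55 and 0.61 in Dll1-5, and 1.94 and 1.94 in Dll1-3. The dimmest probe had 0.12 and 0.20 in Dll1-5, and 1.32 and 1.33 in Dll1-3. All 3 probes thus placed Dll1-3 above Dll1-5 on both arrays.

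The genes that shape chromosomes had a median of 1.28 over 6 members, and 0 of 6 were 2-fold higher on all arrays. Smc2 and Smc4 encode the core pair of condensin. Smc2 had 1.18 and 0.98 in Dll1-5, and 1.85 and 2.03 in Dll1-3, while Smc4 had 1.14 and 0.69 in Dll1-5, and 1.30 and 0.96 in Dll1-3. Smc4 was, with Cdc25b, a member whose lines overlapped, and Dll1-5 minus Dll1-3 was -0.86 for Smc2 and -0.22 for Smc4. The condensin I subunits Ncaph and Ncapd2 averaged 1.31 ± 0.54 and 0.99 ± 0.18. Top2a, the topoisomerase that untangles sister DNA, had 0.94 and 1.09 in Dll1-5, and 1.80 and 1.93 in Dll1-3. Mki67, the gene of the proliferation antigen Ki-67, was nearly the same on both arrays of a line, with 0.99 and 0.999 in Dll1-5 and 1.49 and 1.49 in Dll1-3.

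Spindle assembly factors had a median of 1.56. Nusap1, which bundles microtubules near chromosomes, averaged 1.71 ± 0.65, and Tpx2, the activator of Aurora A, averaged 1.56 ± 0.56. Hmmr, a spindle and hyaluronan-binding protein, had 0.72 and 0.77 in Dll1-5, and 1.58 and 2.07 in Dll1-3. All 3 were higher on both Dll1-3 arrays than on either Dll1-5 array.

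For cytokinesis the median was 1.19, and Prc1 alone of 4 members was 2-fold higher on all arrays. Prc1, which bundles the midzone microtubules, had 1.23 and 1.37 in Dll1-5, and 1.68 and 1.80 in Dll1-3. Racgap1, the other subunit of centralspindlin, averaged 1.21 ± 0.30. Ect2, which activates RhoA at the cell equator, averaged 1.17 ± 0.54, and Anln, the ring protein anillin, averaged 1.17 ± 0.71. Of the last 2, both arrays of Dll1-5 stood under 2-fold and both arrays of Dll1-3 above it.

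Mitotic exit genes had a median of 1.29 over 5 members. Ube2c, the ubiquitin-conjugating enzyme of the anaphase-promoting complex, had 1.62 and 1.81 in Dll1-5, and 2.12 and 2.19 in Dll1-3. Its mean of 1.94 ± 0.31 is a 3.83-fold higher level, with an adjusted p of 0.0754 in limma. Espl1, the protease separase that cuts cohesin, had 1.26 and 1.36 in Dll1-5, and 1.82 and 1.82 in Dll1-3. Pttg1, the securin that inhibits separase, had 1.27 and 0.91 in Dll1-5, and 1.66 and 1.30 in Dll1-3, and here too the lines did not overlap. Cdc20, the activator of the anaphase-promoting complex, had 1.13 and 0.93 in Dll1-5, and 1.45 and 1.21 in Dll1-3. Ccnf, the F-box protein cyclin F, was the lowest of all members, with 0.61 and 0.38 in Dll1-5, and 1.02 and 1.002 in Dll1-3. Foxm1, a transcription factor that acts on many G2 and M phase genes, had 0.85 and 0.86 in Dll1-5, and 1.52 and 1.41 in Dll1-3.

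The difference between the lines ran almost entirely one way. Both Dll1-3 arrays stood above both Dll1-5 arrays for 43 of 45 members, where 24.3% of all genes did, and for 31 of 45 the line means were also at least 0.5 apart, beside 8.1%. The median of Dll1-5 minus Dll1-3 was -0.63, against 0.01 over all genes, and ran from -1.56 for Cenpe to 0.08 for Cdc25b. At least 2-fold higher levels on both arrays of a line were found for 20 of 45 members in Dll1-5, beside 3% of all genes, and for 43 of 45 in Dll1-3, beside 4.44%. For the median member, an array lay 0.067 from its line's mean in Dll1-5 and 0.061 in Dll1-3. The lines were 1 replicate each, so this difference was not tested. With median centring in place of loess, both arrays of Dll1-3 were above both of Dll1-5 for 3 members, though the medians of the line means were 1.16 in Dll1-5 and 2.04 in Dll1-3.

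The channels were also read separately. In the mutant channel, Dll1-5 minus Dll1-3 had a median of -0.74 over the members, with 44 of 45 below 0, beside 49.4% of all genes, and 37 of 45 lower by over 0.5, beside 9.74%. In the wild-type channel, the Dll1-5 arrays minus the Dll1-3 arrays had a median of -0.07, with 41 of 45 below 0, beside 51.5% of all genes, and 1 lower by over 0.5, beside 0.602%. That gene was Pttg1, at -0.73, beside -1.11 in the mutant channel. For Cenpe the log2 levels were 11.26 and 11.15 in mutant channels of the Dll1-5 arrays, and 12.90 and 12.83 in those of the Dll1-3 arrays. Its wild-type channels stood at 10.88 and 11.05 on the Dll1-5 arrays, and at 11.02 and 11.12 on the Dll1-3 arrays. The wild-type levels of Cenpe thus lay close together on all 4 arrays, and the mutant levels did not.

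**Figure D3:**
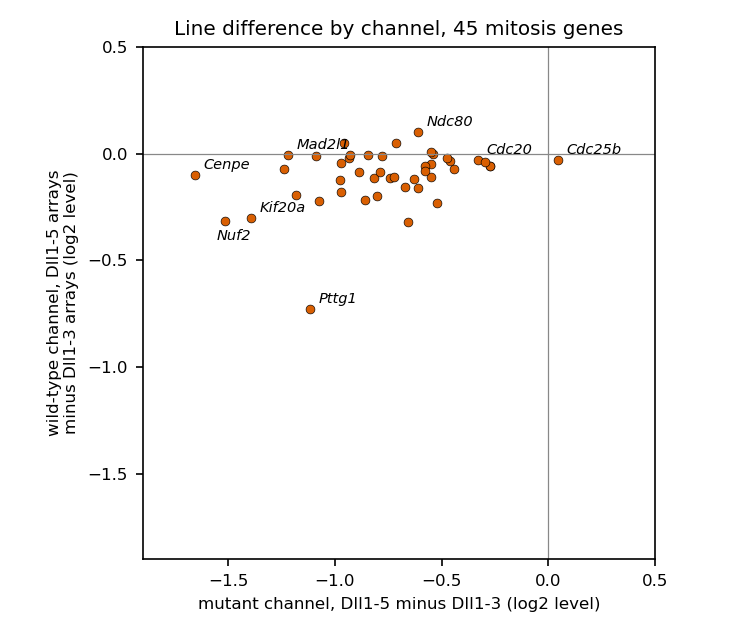
Difference in log2 level between the Dll1-5 and the Dll1-3 arrays for the 45 mitosis genes, in the mutant channel (horizontal axis) and in the wild-type channel (vertical axis); each point is a gene. Points spread along the horizontal axis, with a median of -0.74, and stay near 0 on the vertical axis, with a median of -0.07 and Pttg1 lowest at -0.73.

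Probes of the same member often differed in size and hardly in direction. Of the 75 passing probes 74 had a mean above 0, and the exception was a dim Melk probe at -0.01, beside 1.59 for its brightest. In the 22 members with over 1 passing probe, the brightest probe exceeded the dimmest in 22, with medians of 1.28 and 0.62. The 13 passing probes with a mean log2 intensity under 7 had a median of 0.31 and a range of -0.01 to 0.75, and the 62 others a median of 1.29 and a range of 0.60 to 2.32. Cdk1 had 1.72 by its bright probe and 0.17 by its dim one, and Nusap1 had 1.71 and 0.26. A gene is represented here by its brightest probe, which gave the highest ratio of its probes in all of the 22 members but Cenpe and Ncapd2, and the added offset of 50 lowers the ratios of dim probes by construction. With the mean of all passing probes the members' medians were 0.86 in Dll1-5 and 1.60 in Dll1-3.

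**Figure D4:**
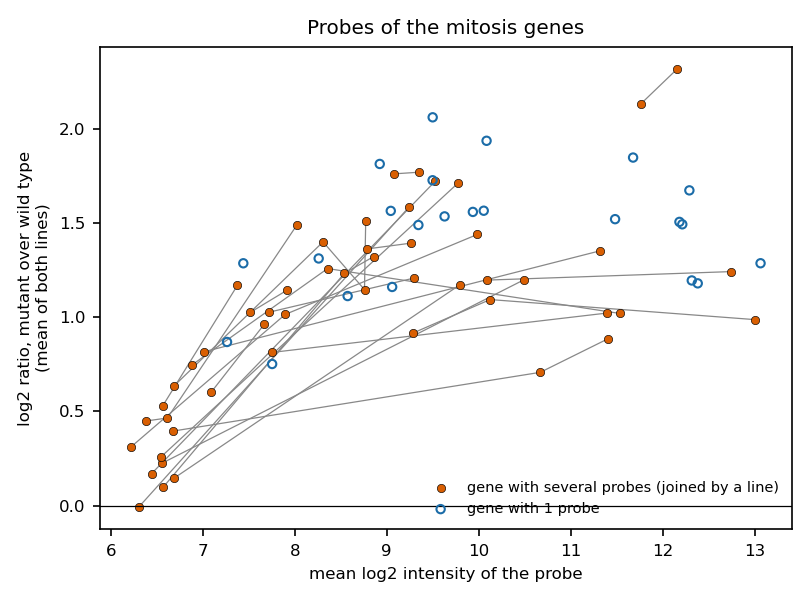
Mean log2 ratio over both lines (vertical axis) against mean log2 intensity (horizontal axis) for the 75 passing probes of the mitosis genes; filled points joined by a line are probes of the same gene and open circles are genes with 1 probe. Probes under an intensity of 7 lie between -0.01 and 0.75, and the brighter ones between 0.60 and 2.32.

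Other genes of mitosis, listed from knowledge of the pathway, were mostly higher too, apart from those of the anaphase-promoting complex. Of 119 listed genes 117 were measured, and the median was 0.90, with 0.56 in Dll1-5 and 1.22 in Dll1-3. Higher on all 4 arrays were 89 of 117, beside 23.9% of all genes. On all 4 arrays 28 of 117 were 2-fold higher, beside 1.68%, and none was 2-fold lower, beside 2.73%. At an adjusted p of 0.05 limma passed 0 of them, and without adjustment 71 of 117 were under 0.05 on the higher side, beside the 12% of all genes, and 7 on the lower, beside 15.5%. By role, the medians were 1.72 for 3 condensin subunits, 1.27 for 7 checkpoint genes, 1.17 for 25 kinetochore genes and 1.13 for 6 cytokinesis genes. They were 0.86 for 28 spindle and centrosome genes, 0.79 for 9 cyclins and CDK1 regulators, and 0.56 both for 13 cohesion and passenger genes and for 11 genes of the DREAM and E2F group. The 15 genes of the anaphase-promoting complex and its regulators had a median of -0.06, and 1 of 15 was 2-fold higher on all arrays. With median centring 4 of the 117 genes were 2-fold higher on all 4 arrays, beside 0.515% of all genes. With a 1.5-fold threshold 53 were, beside 4.92%.

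The extremes of these roles were named by rule. Cep55, the midbody protein that recruits the abscission machinery, was the highest of all by its brightest probe, with 1.83 and 1.90 in Dll1-5, and 2.48 and 2.67 in Dll1-3. A second Cep55 probe had 1.59 and 1.39 in Dll1-5, and 1.27 and 0.83 in Dll1-3. Its mean was 1.27, and its lines stood in the opposite order. Cks2, a small subunit of CDK complexes, averaged 2.11 ± 0.81, and Trip13, the ATPase that takes the checkpoint complex apart, averaged 2.10 ± 1.09. Kif20b, a kinesin of the family of Kif20a, averaged 2.07 ± 0.39, Nsl1 of the MIS12 kinetochore complex 2.07 ± 0.95, Ncapg2 of condensin II 2.03 ± 0.19 and Cdca5, the cohesin protector sororin, 1.99 ± 0.42. Fbxo5, an inhibitor of the anaphase-promoting complex known as EMI1, averaged 1.47 ± 0.40, and Lin9, a subunit of the MuvB core that reads the CHR, averaged 1.37 ± 0.57. By their brightest probes all of these genes were higher on each of the 4 arrays. The lowest passing probe gave 1.11 for Kif20b, 0.98 for Cdca5, 0.26 for Nsl1 and 0.21 for Lin9, and a second Cks2 probe gave 2.16.

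At the low end of their roles were several genes that also work outside mitosis. Ndel1, which binds dynein, was the lowest of all, with -0.55 and -0.59 in Dll1-5, and -1.002 and -1.03 in Dll1-3. Rbl2, which encodes the pocket protein p130, a repressor in resting cells, averaged -0.71 ± 0.33, and Anapc4, a core subunit of the anaphase-promoting complex, averaged -0.70 ± 0.51. Rhoa averaged -0.53 ± 0.46 and the cohesin subunit Stag2 averaged -0.42 ± 0.40, with a range of -1.25 to 0.42 over its arrays and a mean of 0.12 by the median of its passing probes. The gene Zw10, of the checkpoint complex RZZ, averaged 0.23 ± 0.41 and Ncapd3 of condensin II averaged 1.14 ± 0.26. Ska2, of the SKA complex, averaged -0.04 ± 0.46, and Ccnb2, a cyclin partner of CDK1, averaged -0.42 ± 1.83. For these last 2 the lines stood on opposite sides of 0.

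**Figure D5:**
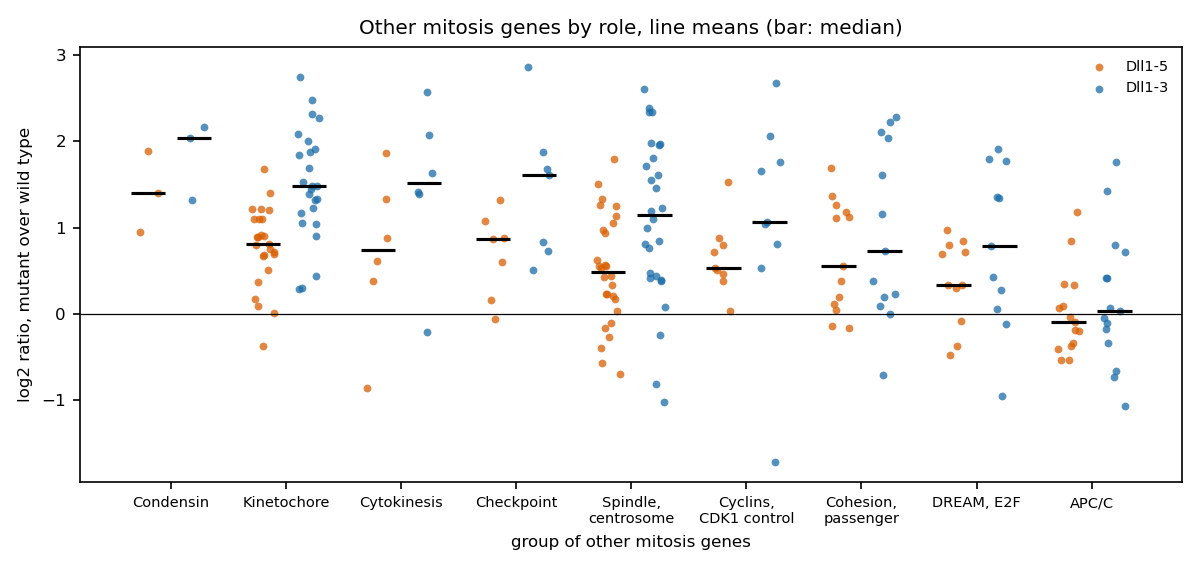
Line means of the log2 ratio of mutant over wild type for 117 other mitosis genes by role, with Dll1-5 (orange) left of Dll1-3 (blue); each point is a gene and the black bar is the median. Over both lines the medians run from 1.72 for condensin to -0.06 for the anaphase-promoting complex (APC/C).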

How the data were processed

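The authors deposited the intensity values of each scan, extracted with Agilent Feature Extraction 8.1.1.1 per the submitters' processing notes and the file headers. The files also hold the scanner software's log10 ratio of Cy5 over Cy3, per the file headers, and the series table deposited by the authors is a log10 ratio too. That table correlated at -0.962, -0.956, -0.954 and -0.956 with mutant over wild type on the 2 Dll1-3 and then the 2 Dll1-5 arrays, so it was turned. Its column medians were -0.03, 0.01, -0.02 and 0.01, and its centring was not given in the sources used here.

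In limma 3.58.1 (R 4.3.3, the data.table package, 1.17.8), mean signals were background-corrected with normexp (offset 50) and normalised with loess within each array (span 0.3). Control spots and 50, 78, 115 and 27 outlier spots on the Dll1-3 and then the Dll1-5 arrays were left out, and saturated spots were kept. Of 41174 probes, 34446 passed a filter that asked, for at least 1 line, that mutant or wild-type RNA be well above background on both its arrays. No member passed through mutant RNA alone: all 45 were well above background in both channels of all arrays, and none was saturated. Each gene was represented by its brightest passing probe, for 23107 genes in all, of which 23106 could be tested over both lines; 7631 had over 1 passing probe. RefSeq gave the names of 13817 genes through their accession, of 2432 through the symbol and of 1341 through a synonym, while 5517 stayed as the file has them. Of the members 7 were listed under older names, and Cdk1 is the file's Cdc2a. The build of the probe coordinates was not given in the sources used here. Channel levels were taken after loess and Aquantile.

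Both arrays of a line were averaged, and the line means tested against 0 with lmFit and eBayes, adjusting p-values over all genes by Benjamini-Hochberg. The fit has 1 residual degree of freedom and a prior of 1.64. How far wild-type pools vary among themselves does not enter this test. The fit was tested on simulated data. Replicate numbers are the dye orientation: deviations of the first arrays from their line means correlated at r = 0.70 between lines. Motifs were searched in Python 3.11.15 (pandas 2.3.3, matplotlib 3.10.9).

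The members, gene lists and alternatives were chosen with earlier results of these data known. All members are named, and of the other mitosis genes the highest and lowest mean of each role; DNA replication genes are given by counts and median.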

Additional observations from a re-analysis of the deposited data

Results flagged for a closer look

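Ccnb2, which encodes cyclin B2, a partner of CDK1, stood on opposite sides of 0 in the lines. It stood at 0.86 and 0.89 on the Dll1-5 arrays and at -1.85 and -1.58 on the Dll1-3 arrays, so Dll1-5 minus Dll1-3 was 2.59. Its log2 level in mutant channels was 10.62 and 10.60 in Dll1-5 and 7.71 and 8.05 in Dll1-3, while its wild-type channels stood at 9.76 and 9.71 on the Dll1-5 arrays and at 9.56 and 9.63 on the Dll1-3 arrays. This rests on 1 probe.

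Ska2, of the SKA complex that couples kinetochores to microtubules, stood at -0.32 and -0.43 on the Dll1-5 arrays and at 0.32 and 0.25 on the Dll1-3 arrays, a difference of -0.66, also on 1 probe. Both genes are listed here because both arrays of one line lay above 0 and both arrays of the other below it. The difference between the lines was not tested for either.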

How the results depend on the processing

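All 45 mitosis genes were higher over both lines under each of 21 alternatives, and their median over both lines moved by less than the spread between lines (0.46). Some alternatives leave every ratio as it is and so could reverse none. They are Aquantile, the fits of the 4 arrays as samples, the intensity trend and the 1.5-fold threshold. The members' ratios also stay as they are with no filter on dim probes and with a filter on both channels of all arrays. Leaving out saturated spots does not alter them either, since no member was saturated. The count of members under an adjusted p of 0.05 in limma was 0 in the main setting, 10 with an offset of 10 (4.31% of all genes) and 9 with an intensity trend (5.22%). It was 44 with the 4 arrays as separate samples (33.7% of all genes), 43 with a replicate block, the dye orientation, added (29.2%), and 44 when the line was a random block (28.9%); these fits treat the dye swaps as samples. Leaving out an array gave 0 to 26, beside 0% to 7.29% of all genes. Of 900 single member values over 20 settings, which include such unchanged ratios, 0 reversed and 201 passed. Of 360 values of the named other genes over the same settings, where 0% to 33.7% of all genes passed, 61 passed. In these 360, 1 reversed, Stag2 at 0.12 with the median of all passing probes.

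Medians in Dll1-5 and Dll1-3 were 1.13 and 1.85 with an offset of 10, 1.27 and 1.97 with the scanner's ratios, 1.26 and 1.96 with the deposited table, 1.16 and 2.04 with median centring, 0.86 and 1.60 with the mean and 0.86 and 1.62 with the median of all passing probes. Without background correction Dll1-3 gave 1.66, and without an array Dll1-5 gave 1.07 to 1.11. Under median centring, 2 members, 4 other mitosis genes and 0 replication genes were 2-fold higher on all 4 arrays, beside 0.515% of all genes. For 3 members both Dll1-3 arrays were then above both Dll1-5 arrays. The medians of the separate arrays were then 1.94 and 0.44 in Dll1-5 and 2.85 and 1.22 in Dll1-3, against 1.11 and 1.07, and 1.72 and 1.73, with loess. At 1.5-fold the counts were 41, 53 and 24, beside 4.92% of all genes. Replication genes 2-fold higher on all arrays numbered 10 with the scanner's ratios, beside 3.14% of all genes. Without an array they numbered 6 to 10, beside 1.76% to 1.99%.

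A slide block could not be run, since no slide held over 1 array. With 1 residual degree of freedom a missed threshold does not show that a gene is unaltered. Dim probes limit the ratios of dim genes.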

Other observations

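The 41 listed DNA replication genes, which work in S phase, were all measured. Their median was 1.09 over both lines, with 0.87 in Dll1-5 and 1.20 in Dll1-3. On all 4 arrays 39 of 41 were higher, beside 23.9% of all genes. A gene without a value on the first Dll1-5 array was not counted, though it was higher on the other arrays. At least 2-fold higher on all 4 arrays were 6 of 41, beside 1.68% of all genes. They were Mcm3 of the replication helicase, Mcm10, which acts with it, Pold1 and Pole of the polymerases, Rfc4 of the clamp loader and Cdt1, a licensing factor. These were named after their values were seen. Both Dll1-3 arrays stood above both Dll1-5 arrays for 27 of 41, beside 24.3% of all genes. At an adjusted p of 0.05 limma passed 0 of them, and without adjustment 37 were under 0.05 on the higher side, beside 12% of all genes.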
